A study of Mus musculus with 6 samples.

Results

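The 10 genes described here form the core of insulin signalling: the receptors *Insr* and *Igf1r*, the adaptors *Irs1* and *Irs2*, the phosphoinositide 3-kinase (PI3K) subunits *Pik3r1* and *Pik3ca*, the kinases *Akt1* and *Akt2*, and the transcription factors *Foxo1* and *Foxo3*. Members were chosen by name. Every probe other than a control whose gene name in the array files equalled one of the 10 was taken, which gave 17 probes of the 55681 on the array, and all 17 were well above background in all 6 hearts and among the 27590 probes tested. Of the 10 genes, 5 had 1 probe and 5 had several. The hearts came from male C57BL/6 mice, put at 4 weeks of age on a high-fat diet (HFD) that supplied 60% of its kcal as fat or on a standard chow (ND) for 4 months, with 3 hearts per diet and 1 array per heart. Both diets share strain, sex and age, and HFD and ND are the only labelled difference.

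Insulin and insulin-like growth factors bind receptor tyrosine kinases that phosphorylate the IRS adaptors. These recruit PI3K, whose lipid product brings AKT to the membrane, where it is activated. AKT then phosphorylates FOXO factors, which leave the nucleus, and genes that FOXO drives, *Irs2* among the textbook examples in liver, are switched off. In heart muscle the pathway governs glucose uptake and growth of the cell. The arrays measured transcript levels only, so phosphorylation and protein are outside these data.

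Each level below is the log2 intensity of a probe minus the log2 of the 75th percentile of its array, so a level of 0 is as bright as the 75th percentile probe and a difference of 1 is a factor of 2. HFD was compared with ND by limma with Benjamini-Hochberg adjustment over all 27590 probes, and a log2 fold change is the HFD mean minus the ND mean of the level. Probes differ in how brightly they bind, so a level of one probe is not read as higher or lower than that of another, and where levels of different probes are subtracted within a heart, what is read is how the difference changed between the diets. The labelled tissue was borne out by its markers: all 6 cardiomyocyte genes tested (*Myh6*, *Tnnt2*, *Tnni3*, *Actc1*, *Myl2* and *Ttn*) were well above background, their summed linear level relative to the 75th percentile was 2760 to 2818 in ND and 2445 to 2989 in HFD, and 0 of the 6 had an unadjusted limma p below 0.05. Other marker sums differed between diets or hearts. The erythroid sum was 577 to 737 in ND and 367 to 514 in HFD, with all 5 genes lower in HFD. The sum of *Acta1* and *Ckm*, the 2 of 5 genes listed for skeletal muscle that were tested, was 195 to 215 in ND and 135 to 141 in HFD. The others (*Myh4*, *Myh1* and *Mylpf*) were not well above background on every array of a diet. So this sum does not tell skeletal muscle from heart muscle and does not show that skeletal muscle was present. The atrial sum varied within each diet, from 198 to 981 in ND and from 56.2 in HFD 2 to 1149 in HFD 1. In whole hearts, fewer cells of a type and less RNA per cell cannot be told apart, and the part of these markers in the values below was not tested. The arrays shared 1 slide, whose row 1 held HFD 1 and 2 and whose row 2 held HFD 3 beside the 3 ND hearts.

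The probes that carry the results are shown by the first 30 of their 60 bases in lower case, as the array files print them, with their mm9 position and the strand the files give. They are printed to show which piece of the transcript each value stands for. Whether a probe lies in coding sequence or elsewhere in the transcript was not analysed here. The adaptor *Irs2* has 1 probe (chr8:11004490-11004549, minus), and the brighter *Irs1* probe lies at chr1:82229692-82229751, minus. The single *Akt1* probe lies at chr12:113892079-113892138, minus, and the brighter *Foxo1* probe at chr3:52150183-52150242, plus. The *Foxo3* probes lie 61.7 kb apart, one at chr10:41967288-41967347 and the other at chr10:41905610-41905669, both minus.
Irs2 A_66_P102260: tggagctttgccctctgccagcacctatgc
Irs1 A_52_P175242: tacccccaattctgtctggtacttagaatt
Akt1 A_55_P2066384: gccattgctgcaccatgtcgttttttacaa
Foxo1 A_51_P138044: ttcggaatgacctcatggatggagatacct
Foxo3 A_55_P2129309: gtctatagccaagttttgtagagccagtgg
Foxo3 A_55_P2150896: taaaagcagaaggaaggtgttatatcagtt

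For *Akt2*, 2 of the 3 probes overlap by 53 bases and so are not independent readings (chr7:28424405-28424464 and chr7:28424412-28424471, plus). The capitals mark the 23 of the 30 bases shown that both hold.
Akt2 A_55_P2066518: ctgctggCCTTTCCTTACTCCTCGTATTTG
Akt2 A_55_P2025228: CCTTTCCTTACTCCTCGTATTTGtacggta

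Of the 17 probes, 15 had a lower mean level in HFD and 2, those of *Irs2* and *Pik3ca*, a higher one. The median log2 fold change of the 17 was -0.15, against -0.0081 over all 27590 probes, of which 52% were lower in HFD. The member median was -0.04 without HFD 1 and -0.10 with the slide row as a term in the fit. Probes of 1 gene count separately in it, and with the probes of a gene averaged it was -0.18 over the 10 genes. After adjustment 0 of the 17 passed in limma, where 4 of all probes (0.0145%) did. At an unadjusted limma p below 0.05, 1 member probe was higher (*Irs2*), where 5.24% of all probes were, and 3 were lower (*Akt1*, 1 of 2 *Foxo1* probes and 1 of 2 *Foxo3* probes), where 6.63% of all probes were. The hearts of the diets did not overlap for 1 member probe that was higher in HFD, against 7.92% of all probes, and for 4 that were lower (those 3 and *Igf1r*), against 11.1%. With 3 hearts against 3, the exact permutation test of a single probe cannot go below p = 0.1, and it gave this value for each of these 5 probes.

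**Figure D1:**
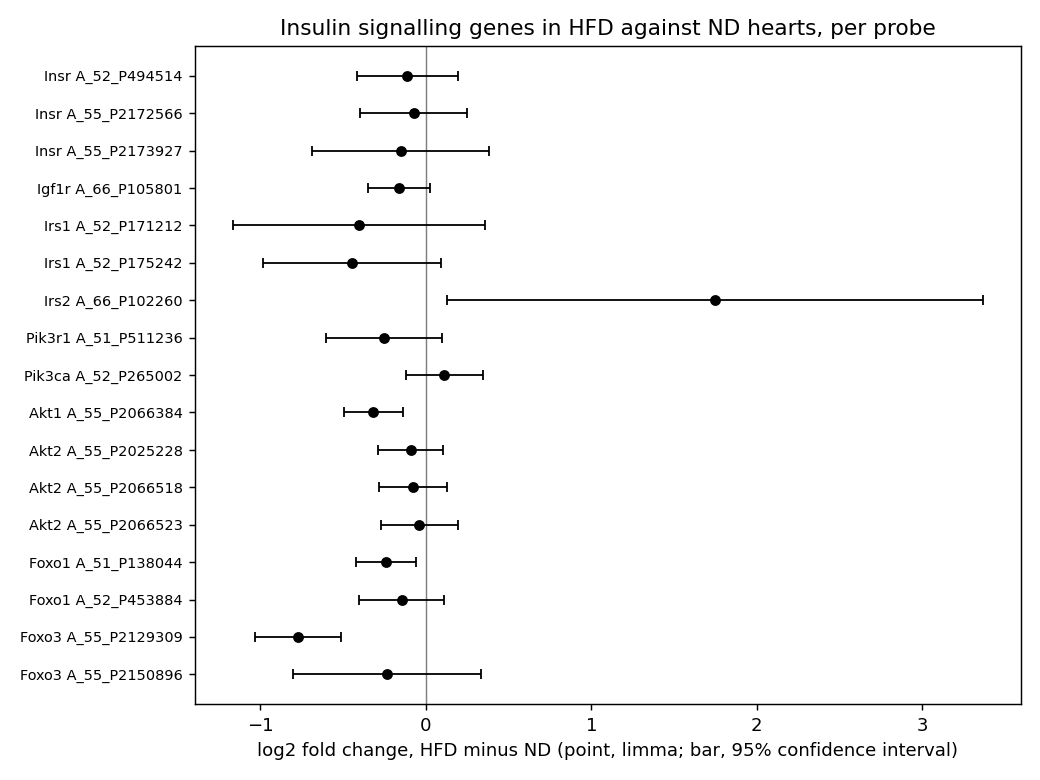
Log2 fold change (HFD minus ND, horizontal axis) of each of the 17 probes, grouped by gene and drawn with its 95% confidence interval from limma. Only the intervals of Irs2 (above 0) and of Akt1, 1 Foxo1 probe and 1 Foxo3 probe (below 0) leave out 0.

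No receptor probe passed the unadjusted threshold. *Insr* encodes the insulin receptor, and its brightest probe (A_52_P494514) read 1.64, 1.68 and 1.57 in ND 1, 2 and 3 and 1.28, 1.74 and 1.53 in HFD 1, 2 and 3, so that the HFD hearts lay on both sides of the ND hearts. The 3 *Insr* probes had log2 fold changes of -0.11, -0.07 and -0.15, each with a 95% confidence interval that spans 0, the widest from -0.69 to 0.38, and adjusted p from 0.776 to 0.868. HFD 1 was the lowest of the 6 hearts for all 3, and without HFD 1 their log2 fold changes turned to 0.0065, 0.066 and 0.064. *Igf1r* encodes the receptor of insulin-like growth factor 1. Its level was 1.46, 1.62 and 1.62 in ND and 1.35, 1.46 and 1.42 in HFD. The diets did not overlap, but the closest hearts, ND 1 and HFD 2, differed by less than the spread within either diet. The ND mean was 1.57 ± 0.09 (SD, n = 3) and the HFD mean 1.41 ± 0.06 (SD, n = 3). The log2 fold change was -0.16 (SE 0.08, adjusted p = 0.483).

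The adaptors *Irs1* and *Irs2*, which link the receptors to PI3K, had mean differences of opposite sign. The *Irs2* intensity was 3167, 3542 and 1915 in ND and 8156, 23869 and 4727 in HFD, levels of 2.70, 2.87 and 2.01 against 3.98, 5.72 and 3.12. All 3 HFD hearts lay above all 3 ND hearts, and HFD 2 stood far above the other HFD hearts. The mean was 2.53 ± 0.46 (SD, n = 3) in ND and 4.27 ± 1.32 (SD, n = 3) in HFD, a 3.36-fold higher level in HFD. On the log2 scale this is 1.75 (SE 0.66, 95% confidence interval 0.13 to 3.37), the rank of which was 19 among the increases of all probes. By its limma p, 0.0383 before adjustment, it ranked 2661, and it did not pass adjustment (adjusted p = 0.397).

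The size of the *Irs2* difference rested on HFD 2: without that heart it was 1.03 (SE 0.37, limma adjusted p = 0.384), and within slide row 2, where HFD 3 stands alone for its diet, it was 0.59 (SE 0.39, limma adjusted p = 0.680). Leaving out ND 1, ND 2, ND 3 or HFD 1 gave 1.83, 1.92, 1.49 and 1.89 with unadjusted limma p of 0.0710, 0.0544, 0.113 and 0.0686, and leaving out HFD 3 gave the highest value, 2.33, with one of 0.0101. HFD 2 was also the heart with the lowest atrial marker sum (56.2), and the part of that in its *Irs2* level was not tested.

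*Irs1* was lower on average in HFD on both of its probes. The brighter probe read 3.34, 3.56 and 3.33 in ND and 2.50, 3.36 and 3.03 in HFD, where HFD 1 was lowest and HFD 2 lay within the ND range. Its mean was 3.41 ± 0.13 (SD, n = 3) in ND and 2.96 ± 0.43 (SD, n = 3) in HFD, 73.4% of the ND level. This gave a difference on the log2 scale of -0.45 (SE 0.22, 95% confidence interval -0.98 to 0.09, adjusted p = 0.499). Without HFD 1 it was -0.21. The dimmer probe (A_52_P171212, intensities of 51.6 to 116) gave -0.40 (SE 0.31, adjusted p = 0.667) and, without HFD 1, -0.08. Neither probe passed the unadjusted threshold.

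Taken within each heart, the *Irs2* level minus the brighter *Irs1* level lay between -1.33 and -0.64 in ND and between 0.09 and 2.36 in HFD, so that the ranges did not overlap. On the log2 scale, the difference between diets of *Irs2* exceeded that of *Irs1* by 2.19. The exact permutation p was 0.1, and 0.125 after adjustment over 5 pairs of related genes, which were chosen after their values had been seen.

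**Figure D2:**
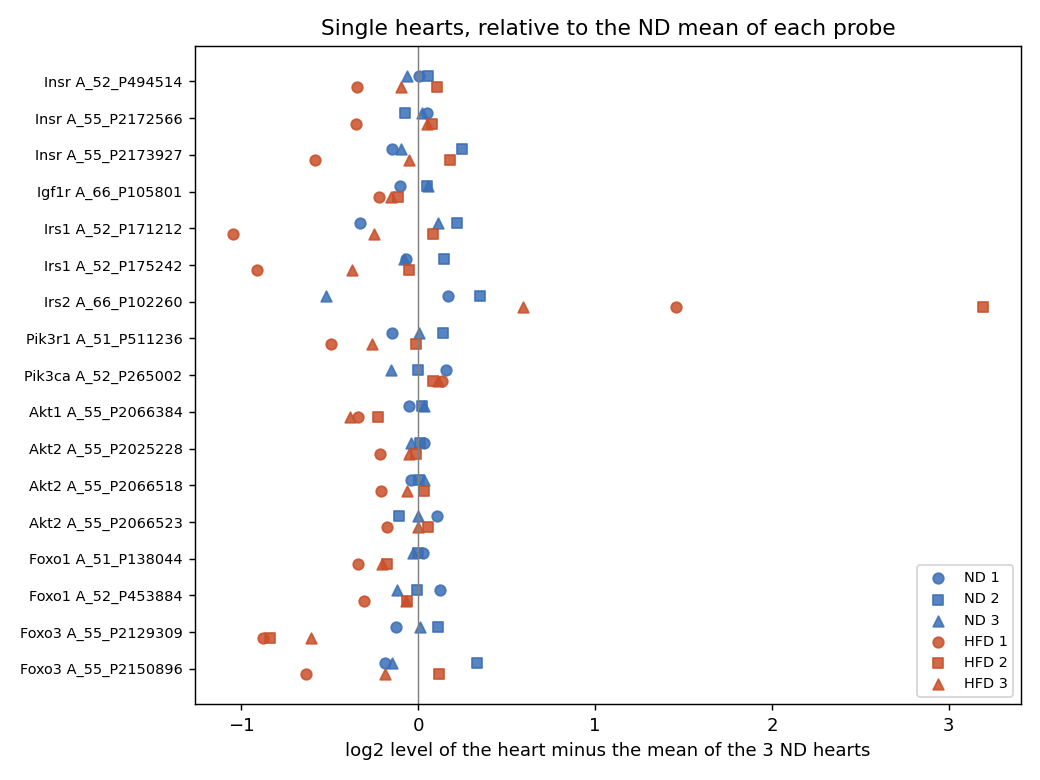
Level of each of the 17 member probes in each of the 6 hearts, as the log2 level minus the mean of the 3 ND hearts (horizontal axis; blue, ND; red, HFD; circle, square and triangle, hearts 1, 2 and 3). HFD 1 is the lowest heart for 14 of the 17 probes, and the HFD hearts of Irs2 lie to the right of all ND hearts.

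Both adaptor genes have the same short motifs before their start, in the 250 bases that RefSeq places upstream on GRCm38.p6 (a build other than that of the probe positions). The stretches shown are chr1:82291440-82291689 for *Irs1* and chr8:11008930-11009179 for *Irs2*, both on the minus strand and both printed 5′ to 3′ because they let the adaptors be set side by side. Capitals mark TGTTTTG, the core of a textbook insulin response element, and the E-box CACGTG, searched on both strands. The motifs were chosen after the promoters had been read.
Irs1: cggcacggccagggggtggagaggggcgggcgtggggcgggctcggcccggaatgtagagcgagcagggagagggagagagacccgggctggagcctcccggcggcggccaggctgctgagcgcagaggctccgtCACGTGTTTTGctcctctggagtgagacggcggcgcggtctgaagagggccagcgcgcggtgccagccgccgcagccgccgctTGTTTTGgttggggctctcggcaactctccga
Irs2: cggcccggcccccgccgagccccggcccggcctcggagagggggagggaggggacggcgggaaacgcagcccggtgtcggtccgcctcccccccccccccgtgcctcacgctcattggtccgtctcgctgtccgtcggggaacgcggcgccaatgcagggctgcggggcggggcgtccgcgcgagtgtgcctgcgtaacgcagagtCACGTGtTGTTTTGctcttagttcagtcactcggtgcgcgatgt

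In *Irs1* the E-box overlaps the first TGTTTTG, and a second TGTTTTG lies nearer the start, while in *Irs2* the E-box and TGTTTTG stand 1 base apart. TGTTTTG was in 5.56% of all 32851 promoters of this length and CACGTG in 6.02%, and 0.295% held both. Among the 14 promoters listed for the 10 members, those of *Irs1* and *Irs2* were the ones that held either motif. Because the motifs were chosen after the promoters had been read, these shares are background and do not test the pair. GTAAACA, the forkhead core, was in 3.17% of all promoters and, among members, in that of *Akt1*. These are matches of letters, and no binding was measured.

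Neither subunit of PI3K passed the unadjusted threshold. *Pik3r1* encodes the regulatory subunits that bind the adaptors, and its level was 0.91, 1.20 and 1.06 in ND and 0.57, 1.05 and 0.80 in HFD. The lowest of the 6 was HFD 1, and HFD 2 lay within the ND range. The means of 1.06 ± 0.14 and 0.81 ± 0.24 (SD, n = 3 each) gave a log2 fold change of -0.25 (SE 0.14, 95% confidence interval -0.60 to 0.10, adjusted p = 0.556). *Pik3ca* encodes the catalytic subunit p110 alpha. It read -0.38, -0.53 and -0.69 in ND and -0.40, -0.45 and -0.42 in HFD, so that all HFD hearts lay inside the ND range. The log2 fold change was 0.11 (95% confidence interval -0.12 to 0.34, adjusted p = 0.700).

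*Akt1* and *Akt2* encode AKT kinases, *Akt2* the one most tied to glucose uptake. The *Akt1* intensity was 26663, 27738 and 27562 in ND and 23031, 21929 and 23585 in HFD, levels of 5.77, 5.84 and 5.85 against 5.48, 5.60 and 5.44. Every HFD heart lay below every ND heart. The mean was 5.82 ± 0.05 (SD, n = 3) in ND and 5.51 ± 0.08 (SD, n = 3) in HFD, which is 80.3% of the ND level. The log2 fold change was -0.32 (SE 0.07, 95% confidence interval -0.50 to -0.14), with an unadjusted limma p of 0.00500 and an adjusted p of 0.248. The probe was spotted in duplicate on each array, and its spots differed by 0.02 to 0.19 on the log2 scale within a heart.

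*Akt2* showed no such gap. Its brightest probe (A_55_P2066518) read 5.54, 5.59 and 5.62 in ND and 5.38, 5.62 and 5.52 in HFD, with HFD 2 as high as the highest ND heart. The 3 probes gave log2 fold changes of -0.09, -0.08 and -0.04, with adjusted p from 0.707 to 0.910 and confidence intervals that together reach from -0.29 to 0.20. Within each heart, the *Akt1* level minus that of the brightest *Akt2* probe lay between 0.23 and 0.25 in ND and between -0.09 and 0.10 in HFD, with no overlap. The *Akt1* log2 fold change was lower than that of *Akt2* by 0.24 (exact permutation p = 0.1, 0.125 after adjustment over the 5 pairs). This pair was also chosen after the values had been seen. Among the same 5 pairs, *Insr* minus *Igf1r* changed by 0.05 between the diets (exact permutation p = 0.8, also 0.8 after adjustment). *Foxo3* minus *Foxo1*, by the brightest probe of each, changed by -0.53 (exact permutation p = 0.1, 0.125 after adjustment).

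**Figure D3:**
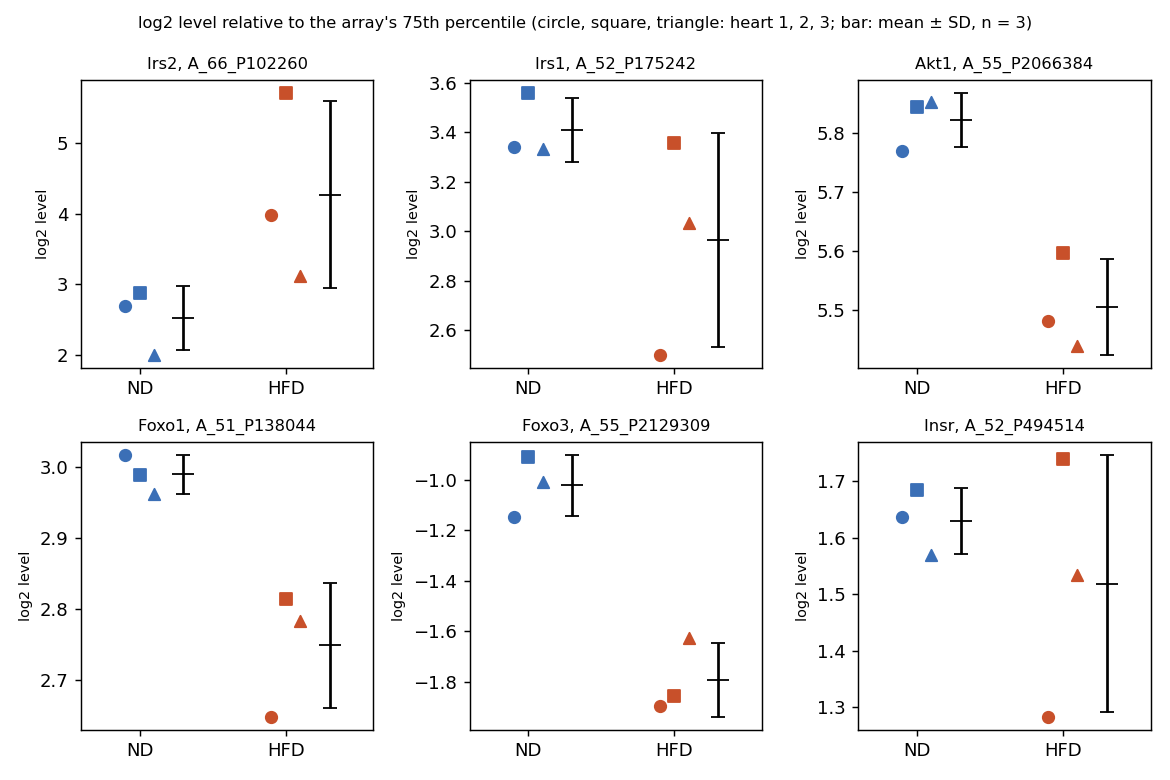
Log2 level relative to the 75th percentile of the array (vertical axis, with its own range in each panel) in the 3 ND and 3 HFD hearts for 6 member probes, with the mean and 1 SD beside each diet. The diets are apart for Irs2, Akt1, Foxo1 A_51_P138044 and Foxo3 A_55_P2129309 and overlap for Irs1 A_52_P175242 and Insr A_52_P494514.

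*Foxo1* and *Foxo3* encode the forkhead factors that AKT keeps out of the nucleus. Among members the smallest p belonged to *Foxo3* probe A_55_P2129309, which stands for the cDNA AK143198. Its intensity was 221, 258 and 237 in ND and 139, 125 and 176 in HFD, levels of -1.15, -0.91 and -1.01 against -1.90, -1.86 and -1.62. The diets were separated by a gap wider than the spread within either one. The mean was -1.02 ± 0.12 (SD, n = 3) in ND and -1.79 ± 0.15 (SD, n = 3) in HFD, 58.6% of the ND level. The log2 fold change was -0.77 (SE 0.11, 95% confidence interval -1.03 to -0.51). The unadjusted limma p of 0.000353 ranked 83 among all probes, and the adjusted p was 0.117.

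The other *Foxo3* probe (A_55_P2150896, for the RefSeq transcript NM_019740) had a smaller and less precise difference. It was the dimmest of the 17, with intensities of 27.8 to 51.0. Its level was -3.77, -3.24 and -3.73 in ND and -4.21, -3.46 and -3.77 in HFD, and the diets overlapped. The log2 fold change was -0.24 (SE 0.23, 95% confidence interval -0.80 to 0.33, adjusted p = 0.743). This interval holds both 0 and the -0.77 of A_55_P2129309. The difference between both *Foxo3* probes (-0.54) had an exact permutation p of 0.1 (0.9 after adjustment over the 9 pairs of probes of 1 gene). AK143198 had no match in the RefSeq table used, while the accessions of the other 16 probes matched a gene of the same symbol. Which *Foxo3* transcript A_55_P2129309 reads is therefore not settled by these arrays. With both probes averaged the log2 fold change was -0.50 (limma adjusted p = 0.299).

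For *Foxo1*, probe A_51_P138044 read 3.02, 2.99 and 2.96 in ND and 2.65, 2.81 and 2.78 in HFD, and every HFD heart lay below every ND heart. The mean was 2.99 ± 0.03 (SD, n = 3) in ND and 2.75 ± 0.09 (SD, n = 3) in HFD, 84.6% of the ND level, with a log2 fold change of -0.24 (SE 0.07, 95% confidence interval -0.42 to -0.06, adjusted p = 0.316). The second probe (A_52_P453884), 3.11 kb further along the chromosome, overlapped between the diets. It read 2.43, 2.30 and 2.19 in ND and 1.999, 2.24 and 2.24 in HFD (log2 fold change -0.15, SE 0.11, adjusted p = 0.649). The unadjusted p of A_51_P138044 (0.0165 in limma) went to 0.0583 without ND 1, to 0.0516 without ND 2 and to 0.122 with the slide row as a term.

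HFD 1 was low on most of these probes. It was the lowest of the 6 hearts for 14 of the 17, while over all probes measured in every heart it was the lowest for 26.8%. The exceptions were *Irs2* and *Pik3ca*, lowest in ND 3, and *Akt1*, lowest in HFD 3. Among the HFD hearts alone, HFD 1 was the lowest for 14 of the 17, against 44.7% of all probes measured in every heart. Without HFD 1, 11 of the 17 were lower in HFD, where 47.4% of all probes were, and 3 had an unadjusted limma p below 0.05, where 11.8% of all probes did. *Akt1* was then at -0.30, *Foxo1* A_51_P138044 at -0.19 and *Foxo3* A_55_P2129309 at -0.72. HFD 1 also had the highest atrial marker sum (1149), and the part of that was not tested.

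Beyond the members, 86 further genes of the pathway were listed, and 84 were tested by the brightest probe of each. Of these 84, 53 were higher and 31 lower in HFD. Over all 20571 genes taken the same way, 9617 were higher and 10954 lower. The median log2 fold change was 0.02 for the 84 and -0.01 for all genes. At an unadjusted limma p below 0.05 there were 5 higher and 7 lower, together 14.3% of the list, while of all genes 11.98% passed (1022 higher and 1442 lower). After adjustment 0 of the 84 passed. With the slide row as a term, *Cat*, *Deptor*, *Igfbp3* and *Socs1* were the ones of these 12 genes that kept an unadjusted limma p below 0.05, with *Igfbp3* then at -0.28. So the share of the 84 at the unadjusted threshold was near the background. Their directions leaned to higher, where those of all genes leaned to lower, and this was not tested. The splits of the single lists below stand beside these counts over all genes. Genes named from the lists are described by their values.

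Upstream of the receptors, 8 of 9 ligands and binding proteins were tested, 6 higher and 2 lower in HFD. *Igfbp3*, which binds insulin-like growth factors in the circulation, read -0.02, -0.07 and 0.03 in ND and -0.59, -0.65 and -0.30 in HFD, with no overlap (log2 fold change -0.49, SE 0.11, adjusted p = 0.236). *Igf1* itself had 0.11 (SE 0.09, adjusted p = 0.700). Among the 10 other adaptors, 8 were higher and 2 lower, and *Irs4* passed the unadjusted threshold at -0.31 (SE 0.11, adjusted p = 0.365), but not without ND 2, ND 3 or HFD 1 (unadjusted limma p of 0.0916, 0.0846 and 0.0776). Of the 6 other PI3K subunits, 3 were higher and 3 lower, and *Pik3cg*, the catalytic subunit best known from leukocytes, had -0.47 (SE 0.15, adjusted p = 0.322), which was -0.18 with normexp background correction. Its unadjusted limma p was above 0.05 in 4 of the 20 other settings, at 0.120 with the slide row as a term and 0.0587 without HFD 1. The summed macrophage markers were 26.9 to 30.8 in ND and 22.4 to 27.4 in HFD, and their part in the *Pik3cg* value was not tested.

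Of the 17 negative regulators, 11 were higher and 6 lower in HFD. *Socs1*, a suppressor of cytokine and insulin receptor signalling, read -2.17, -2.06 and -2.12 in ND and -1.86, -1.85 and -1.64 in HFD (log2 fold change 0.33, SE 0.09, adjusted p = 0.271), and 0.21 with normexp. *Phlpp1*, a phosphatase of AKT, had 0.22 (SE 0.09, adjusted p = 0.413), with an unadjusted limma p below 0.05 in 10 of the 20 other settings and a value of 0.10 with the slide row as a term. Each single heart left out, other than HFD 3, took that p above 0.05.

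Of the 21 downstream kinases and effectors, 14 were higher and 7 lower. *Deptor*, an inhibitor within the mTOR complexes, had the smallest p of the listed genes. It read 0.13, 0.13 and 0.24 in ND and 0.64, 0.51 and 0.55 in HFD, with no overlap (log2 fold change 0.40, SE 0.07, adjusted p = 0.170). *Prkcz*, an atypical protein kinase C, had -0.60 (SE 0.17, adjusted p = 0.288), or -0.39 with normexp, and all 3 of its probes were lower. *Pdpk1*, which encodes the kinase that phosphorylates AKT in its activation loop, had 0.01 (SE 0.09, adjusted p = 0.974).

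The other FOXO factors both had a higher mean in HFD. For *Foxo6* the diets overlapped, and HFD 2 (0.99) was the lowest of the 6 hearts. Its log2 fold change was 0.22 (SE 0.19, limma adjusted p = 0.702), and a second probe gave 0.95. *Foxo4* was at -3.71, -3.66 and -4.20 in ND and -2.85, -3.08 and -3.25 in HFD, and the diets did not overlap on this dim probe. Its log2 fold change was 0.80 (SE 0.18, adjusted p = 0.240), and a second probe gave 0.20. With normexp background correction it was 0.30, with both probes averaged 0.50, and with the slide row as a term 0.60 (unadjusted limma p of 0.0631). Set against *Foxo3* A_55_P2129309 in the same heart, the *Foxo4* level minus that of *Foxo3* lay between -3.20 and -2.56 in ND and between -1.63 and -0.95 in HFD. The log2 fold changes differed by 1.57. Each of these probes alone already separated the diets, in opposite directions, so their difference had to separate them too. Its exact permutation p, 0.1 (0.125 after adjustment over the 5 pairs), was therefore fixed in advance and adds nothing to the single probes. This pair, too, was chosen after the values had been seen.

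Of the 20 tested genes that FOXO factors are known to drive, 9 were higher and 11 lower in HFD, and the median was -0.03 on the log2 scale. *Cat*, the catalase that breaks down hydrogen peroxide, read 3.14, 3.10 and 3.11 in ND and 3.35, 3.71 and 3.57 in HFD, and both of its probes were higher (log2 fold change 0.43, SE 0.10, adjusted p = 0.253). *Sesn1*, a stress-induced inhibitor of mTOR signalling, read 5.08, 5.01 and 5.02 in ND and 4.30, 4.82 and 4.50 in HFD (log2 fold change -0.50, SE 0.14, adjusted p = 0.285). *Fbxo32*, the muscle ubiquitin ligase atrogin-1, had -0.34 (SE 0.11, adjusted p = 0.356), with an unadjusted limma p of 0.0851 without ND 1 and 0.0580 without ND 3, and *Cited2*, a transcriptional coregulator, also had -0.34 (SE 0.09, adjusted p = 0.284), which was -0.20 with the slide row as a term (unadjusted limma p of 0.136). *Pdk4*, which holds back glucose oxidation, was at 6.90, 6.73 and 6.94 in ND and 6.80, 7.82 and 7.75 in HFD. HFD 1 lay within the ND range and the other HFD hearts above it, and the log2 fold change was 0.60 (SE 0.28, adjusted p = 0.476).

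**Figure D4:**
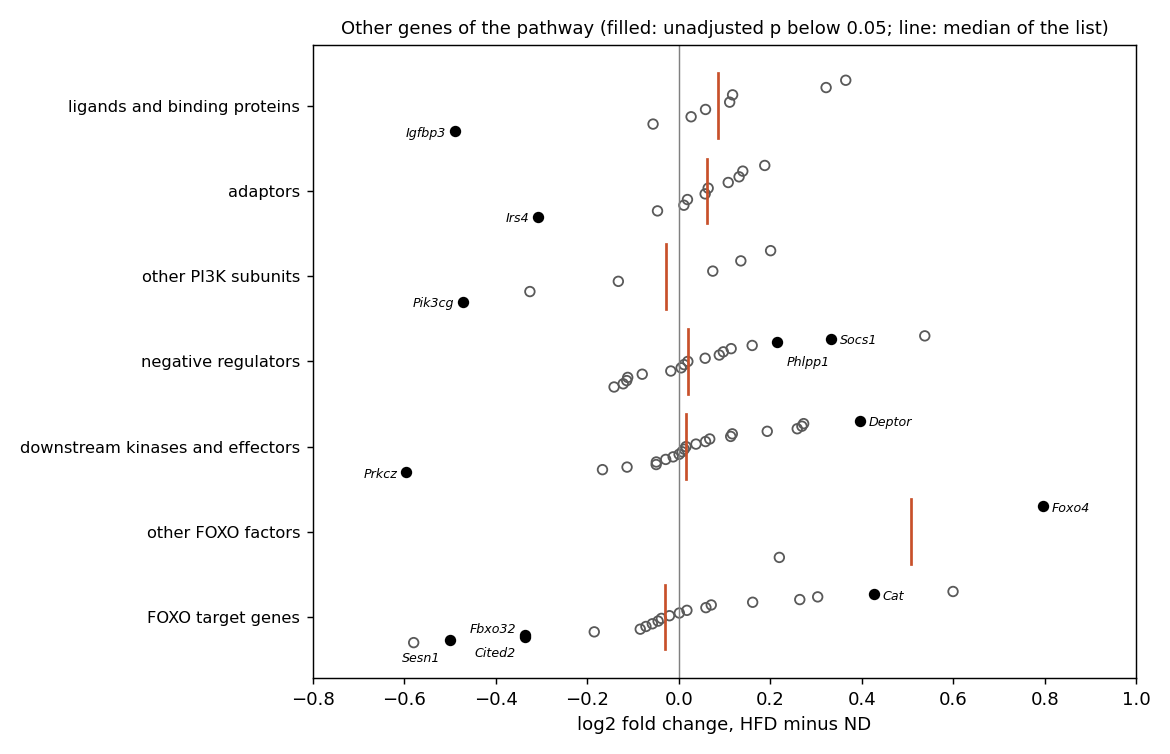
Log2 fold change (HFD minus ND, horizontal axis) of the 84 tested genes of the pathway outside the core, 1 point per gene in its list, filled where the unadjusted limma p was below 0.05, with a line at the median of each list. Of the filled points, 5 lie above 0 and 7 below.

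**Figure D5:**
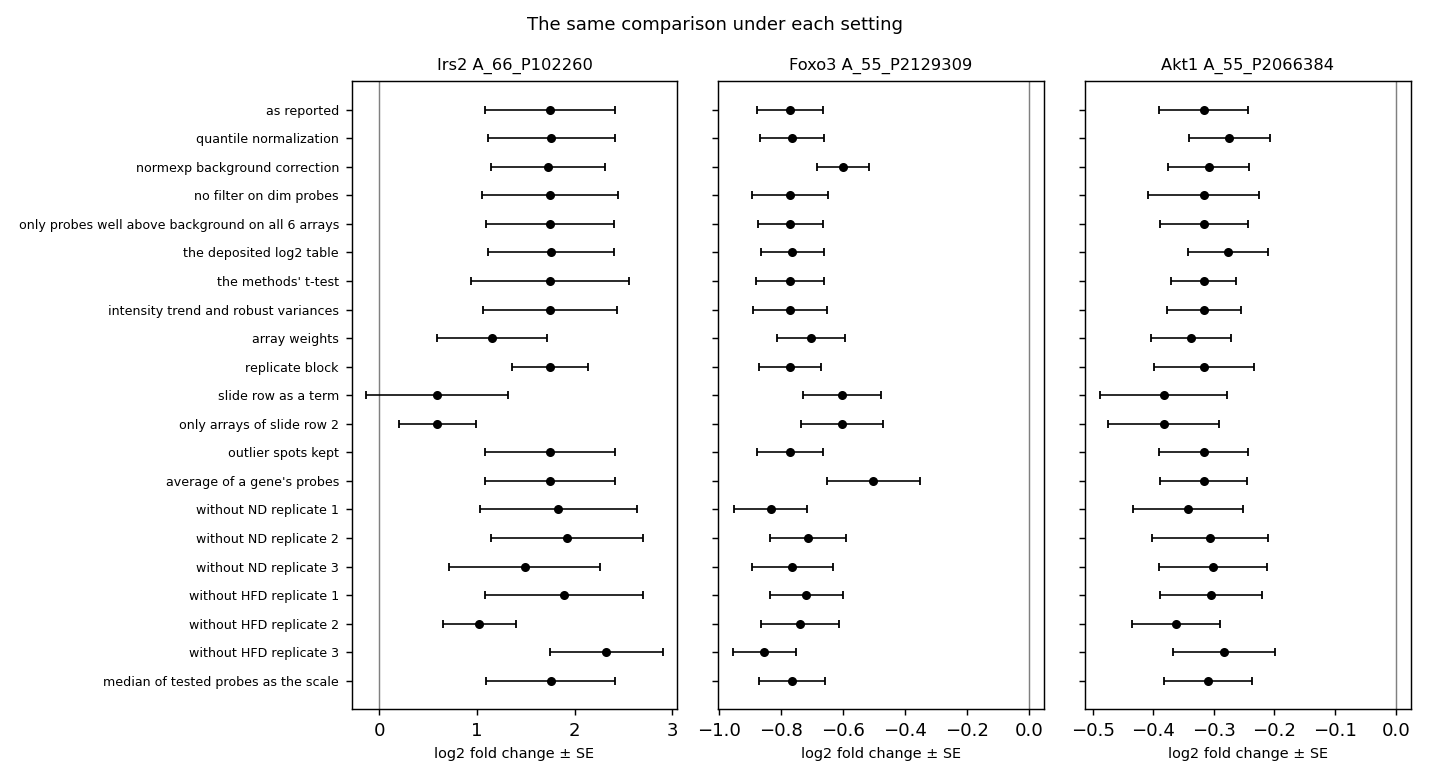
Log2 fold change (HFD minus ND, with its SE) of Irs2, Foxo3 A_55_P2129309 and Akt1 as reported, under each other processing setting and with each heart left out. Irs2 ranges from 0.59 to 2.33, Foxo3 from -0.86 to -0.50 and Akt1 from -0.38 to -0.27, so that no point crosses 0. The Foxo3 value of -0.50 is from the setting that averages both Foxo3 probes.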

How the data were processed

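Heart RNA was isolated with the mirVana and RNeasy kits, hybridised to 1-colour Agilent mouse arrays and read with Agilent Feature Extraction 10.7 (submitters' processing notes, and 10.7.1.1 per the file headers). The deposited intensities were background-subtracted within each array by this software and not normalized between arrays. A second deposited file, of log2 values, matched a quantile normalization of these intensities (column medians of 4.56, so not centred) and was used as an alternative. Control spots and outlier spots (127 to 190 per array) were left out, no spot was saturated, and spots of 1 probe were averaged. The log2 intensity minus the log2 of the 75th percentile of the array (453 to 544) was compared two-sided by lmFit and eBayes of limma 3.58.1 (R 4.3.3) over 27590 probes. A probe was tested if, in 1 diet or both, every array had it well above background, and if 2 arrays or more of each diet measured it. The share of probes well above background was 49.2% to 53.0% per array, and the number of arrays limits the precision. Hearts of 1 diet correlated at 0.990 to 0.995, and each counts as 1 replicate. The R packages jsonlite 2.0.0 and data.table (version 1.17.8) read the files, and matplotlib 3.10.9 with pandas 2.3.3 (Python 3.11.15) drew the figures.

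The array design gave the gene names and the mm9 positions. Pairs of probes or genes were compared by the exact two-sided permutation test of their within-heart difference. Named are all member probes, the listed genes at an unadjusted limma p below 0.05, and *Foxo4*, *Foxo6*, *Igf1*, *Pdpk1* and *Pdk4*. The separate results of some list members are not reported here. The members and lists were chosen with earlier results of these data known. *Igfbp2* and *Igfbp1* had probes that were not tested. The code was tested on simulated data. Besides the reported setting, 20 others were run, 1 of them (the median of tested probes as the scale) added after seeing the data.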

Additional observations from a re-analysis of the deposited data

How the results depend on the processing

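No member probe passed adjustment in any of the 20 other settings, and 2 to 7 of them had an unadjusted p below 0.05 (4 as reported; 7 with the replicate block, 2 with the slide row as a term, 2 with only arrays of slide row 2, and 2 to 6 with 1 heart left out). *Akt1* and *Foxo3* A_55_P2129309 stayed below 0.05 in all 20, *Foxo1* A_51_P138044 in 15 and *Irs2* in 12. In the setting that averages the probes of a gene, the *Foxo3* and *Foxo1* values counted here are those of both probes together. Leaving out 1 heart left 11 to 15 member probes lower in HFD (15 as reported), and averaging the probes of a gene left 8 of 10 genes. Probes past adjustment over the whole array (4 as reported) numbered 2 with quantile normalization, 40 with normexp, 0 with no filter, 2 in the deposited log2 table, 8 by the methods' t-test, 81 with an intensity trend and robust variances, 10 with array weights, 1 with averaged probes, 0 with the replicate block, 0 with the slide row as a term, 0 with only slide row 2, and 0 to 5 with 1 heart left out. Before adjustment, limma called 3275 probes as reported, 3438 with no filter, 3020 with the replicate block, 2136 with the slide row as a term, 2739 with only slide row 2, and 2182 to 3560 with 1 heart left out. Of the listed pathway genes 12 had an unadjusted p below 0.05 as reported and 5 with the slide row as a term.

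Differences near 0 turned sign. With the slide row as a term, and likewise with only slide row 2, *Insr* A_55_P2172566 was at 0.052, *Akt2* A_55_P2066523 at 0.0012 and *Igf1* at -0.022. Without HFD 1 the *Insr* probes A_52_P494514, A_55_P2172566 and A_55_P2173927 were at 0.0065, 0.066 and 0.064, the highest of their leave-one-out values, whose lowest (without HFD 2) were -0.22, -0.15 and -0.32. *Akt2* A_55_P2066523 ranged from -0.091 without ND 2 to 0.029 without HFD 1 and was at 0.013 without ND 1. *Pdpk1* ranged from -0.048 without ND 3 to 0.063 without HFD 1 and was at -0.016 without HFD 2 and -0.011 without HFD 3. The cause was not tested. *Irs2* was at 1.16 with array weights (unadjusted p of 0.0876), and the methods' t-test on 3 hearts per diet did not pass its threshold. No label says that hearts of the same replicate number are paired. The deviations of same-numbered hearts correlated at -0.15, 0.15 and 0.19, which does not settle whether they pair. With the replicate block the unadjusted limma p of *Irs2* was 0.00965 (adjusted p = 0.343), and both *Irs1* probes and *Pik3r1* went below 0.05.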
